A study of Mus musculus with 24 samples.

Results

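Most of the genes described here encode enzymes that add or remove chemical marks on DNA and histones. The genes cover DNA methyltransferases, TET dioxygenases, histone lysine methyltransferases and demethylases, acetyltransferases, and deacetylases. They were chosen by symbol, as the Dnmt1, Dnmt3, Tet, Kdm, Kmt2, Kat, Hdac, Sirt and Ezh genes with Crebbp and Ep300, measured by a probe that the platform assigns to 1 gene. Of 60 genes that the symbols matched, the class IIa deacetylases Hdac4, Hdac5 and Hdac9 were set aside, as were Hdac1 and Kdm4a, which lie close to Foxo6. This left 55 of the 19938 genes in the table, all of them on the array whatever their level. Hdac7, also a class IIa enzyme, stayed in. So did Kdm1a and Kdm4c, which lie on the chromosome of Foxo6 at 16.3 and 46 Mb from it. One of the 55, Dnmt3aos, is an antisense RNA of Dnmt3a and encodes no enzyme. Choice by symbol also brought in Dnmt3l, without catalytic activity, and Kmt2e, without known strong methyltransferase activity. It likewise brought in the mitochondrial Sirt3 and Sirt4 and the polyamine deacetylase Hdac10.

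RNA from the dissected hippocampus was measured on 24 Affymetrix Mouse Gene 1.0 ST arrays, 6 in each of 4 groups. All mice were males aged 8 to 9 weeks on a C57BL/6J-129sv mixed background, either wild type (WT) or FoxO6 -/-, labelled mutant and null and called the mutant here. FoxO6 belongs to the FoxO group of forkhead transcription factors. Basal mice had lived alone for at least 3 days. Learning mice were handled daily, met the empty arena for 10 min, explored a pair of identical objects there for 10 min at 24 h after that, and were killed 60 min later. The comparison of learning with basal therefore also holds the handling, the habituation, the transfers and any difference in housing, which is stated for basal mice only. These cannot be told apart from the task. The samples of the series are listed by state, learning first. A processing batch that followed state could not be told apart from it and was not tested. How the FoxO6 allele was made is not stated in the labels. The arrays of each group are labelled biological replicates with no word on separate animals. The p-values therefore speak for the spread between the samples measured, which need not be the spread between animals.

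Acetylation of histone tails by enzymes such as CBP and p300 goes with open chromatin and transcription, and deacetylases reverse it. Methylation acts by position: on lysine 4 of histone H3 it marks promoters and enhancers of active genes, while on lysines 9 and 27 it goes with silencing. DNA methylation at CpG dinucleotides is written by the Dnmt enzymes, and TET enzymes oxidise it as a first step of removal. In the hippocampus these enzymes have been studied for their part in memory formation, since inhibitors and mutants of several of them alter it in rodents.

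The enzymes whose RNA moved most after the task differ in the base composition upstream of their start. The stretches below are the 250 bases before the RefSeq start (GRCm38.p6), 5′ to 3′ on the strand of the gene, with CpG dinucleotides in capitals. Hdac11, Kat2a, Crebbp and Sirt4 are the called members with the smallest p-values in the learning comparison that had an entry in the RefSeq promoter table. Kdm7a, chosen after its values were seen, had the largest rise among members whose probes did not disagree.
Hdac11: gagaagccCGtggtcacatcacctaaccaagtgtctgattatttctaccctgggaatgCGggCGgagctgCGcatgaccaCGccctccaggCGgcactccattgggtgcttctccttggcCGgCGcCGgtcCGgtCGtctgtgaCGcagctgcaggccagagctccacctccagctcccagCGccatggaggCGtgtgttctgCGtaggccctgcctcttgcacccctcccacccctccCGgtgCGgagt
Kat2a: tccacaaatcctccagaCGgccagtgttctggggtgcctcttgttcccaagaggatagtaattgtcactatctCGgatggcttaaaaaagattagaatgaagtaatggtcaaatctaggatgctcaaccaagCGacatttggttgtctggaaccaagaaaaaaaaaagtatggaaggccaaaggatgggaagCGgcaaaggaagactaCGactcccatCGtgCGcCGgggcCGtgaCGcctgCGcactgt
Crebbp: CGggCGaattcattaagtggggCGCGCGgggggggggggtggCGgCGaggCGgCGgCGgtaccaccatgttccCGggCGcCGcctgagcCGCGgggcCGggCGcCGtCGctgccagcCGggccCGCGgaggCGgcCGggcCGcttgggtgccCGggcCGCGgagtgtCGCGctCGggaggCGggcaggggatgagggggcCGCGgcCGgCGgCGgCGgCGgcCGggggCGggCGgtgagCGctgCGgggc
Sirt4: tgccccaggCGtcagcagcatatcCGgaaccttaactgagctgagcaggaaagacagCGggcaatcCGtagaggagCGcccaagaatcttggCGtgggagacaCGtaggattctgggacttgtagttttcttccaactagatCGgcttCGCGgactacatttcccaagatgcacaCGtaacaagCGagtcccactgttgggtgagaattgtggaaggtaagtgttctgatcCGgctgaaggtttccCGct
Kdm7a: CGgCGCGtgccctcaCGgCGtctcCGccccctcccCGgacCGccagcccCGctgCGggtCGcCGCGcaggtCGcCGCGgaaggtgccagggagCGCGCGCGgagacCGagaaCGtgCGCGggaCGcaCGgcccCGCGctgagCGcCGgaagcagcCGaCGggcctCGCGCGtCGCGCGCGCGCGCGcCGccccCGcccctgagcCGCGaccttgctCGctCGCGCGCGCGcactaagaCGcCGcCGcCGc
The stretches lie at chr6:91156565-91156814 on the + strand for Hdac11, which encodes a zinc-dependent deacetylase, and at chr11:100712468-100712717 on the − strand for Kat2a, an acetyltransferase of the SAGA and ATAC complexes. That of Crebbp, which encodes CBP, lies at chr16:4213405-4213654 on the − strand. Those of Sirt4, a mitochondrial sirtuin, and Kdm7a, a demethylase of histone H3 lysines 9 and 27, lie at chr5:115484298-115484547 and chr6:39206774-39207023, each on the − strand. The stretches hold 17 CpGs for Hdac11, 11 for Kat2a, 44 for Crebbp, 14 for Sirt4 and 56 for Kdm7a. RNA of the first 4 fell after the task and that of Kdm7a rose, so the CpG-rich stretches of Crebbp and Kdm7a belong to genes that moved in opposite directions.

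Foxo6 itself was lower in the mutant by 0.73 on the log2 scale at basal (difference −0.73, limma adjusted p = 0.000128) and after learning (−0.63, adjusted p = 0.000833). Arrays of a group correlated at 0.991 to 0.997 across genes. Averaged over genotypes, 31.7% of all genes rose and 23.1% fell after learning, and the counts below are to be read against these shares. Of 20 activity-induced genes 16 rose and 1 fell, and Fos rose by 1.66. Cell type markers also moved with state. Of 8 pyramidal cell markers 6 fell and 1 rose, and their mean log2 level ranged from 10.24 to 10.37 at basal in WT, 10.31 to 10.36 at basal in the mutant, 9.94 to 10.05 after learning in WT and 9.99 to 10.07 after learning in the mutant. Of 10 astrocyte markers 7 fell and 3 rose, and of 9 endothelial markers 5 fell and 1 rose. Of 15 choroid plexus markers 9 fell. Their mean ranged from 5.99 to 6.95 at basal in WT, where arrays 1, 2 and 3 stood above arrays 4, 5 and 6, from 6.51 to 6.99 at basal in the mutant, from 6.07 to 6.32 after learning in WT and from 6.02 to 6.86 after learning in the mutant. The mean of 9 oligodendrocyte markers was higher after learning, at 10.12 against 10.04 in WT and 10.14 against 10.04 in the mutant. In such bulk RNA fewer cells of a type and less RNA per cell cannot be told apart.

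After the object task, most of the enzymes that changed fell, and they did so in WT and in the mutant. In WT 28 of 55 members were called (limma, adjusted p under 0.05 over all genes), where 43.3% of all genes were called. Of these 9 rose, against 25.1% of all genes, and 19 fell, against 18.2%. In the mutant 29 were called (41.3% of all genes), 7 higher (22.6%) and 22 lower (18.7%). Averaged over genotypes 35 members or 63.6% were called (54.8% of all genes), with 11 that rose (31.7%) and 24 that fell (23.1%). Falls thus made up 43.6% of the members and rises 20%. The rises in each of these counts include Kmt2d and Tet1, whose probes disagreed, as described below. The median difference of the members was −0.06 in WT and −0.03 in the mutant, and that of all genes was 0.03 in each. Leaving out each array in turn gave 23 to 28 called members in WT, 26 to 30 in the mutant and 34 to 37 on average.

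The learning differences in WT and in the mutant come from separate arrays. Of the 55 members 49 (89.1%) had the same sign in both, and 24 (43.6%) were called in both, all in the same direction. Among all genes 84.5% had the same sign and 34.7% were called in both. Called in WT only were 4 members (Dnmt3b, Hdac8, Kat7 and Kdm6a) and in the mutant only 5 (Hdac10, Kat6b, Kdm5c, Kdm8 and Sirt6). A call in 1 genotype only does not show that the genotypes differ. Across members the differences in WT and in the mutant correlated at r = 0.938, against 0.921 across all genes, and genes are not independent replicates. In WT 15 members (27.3%) were lower in all 6 learning arrays than in all 6 basal arrays, where 11.4% of all genes were. Sirt1 (1.82% of members) was higher in all 6, where 13.8% of all genes were. In the mutant the learning arrays lay wholly below basal for 14 members (25.5%; 11.8% of all genes) and wholly above for Ezh1 and Kdm7a (3.64%; 10.9% of all genes).

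**Figure D1:**
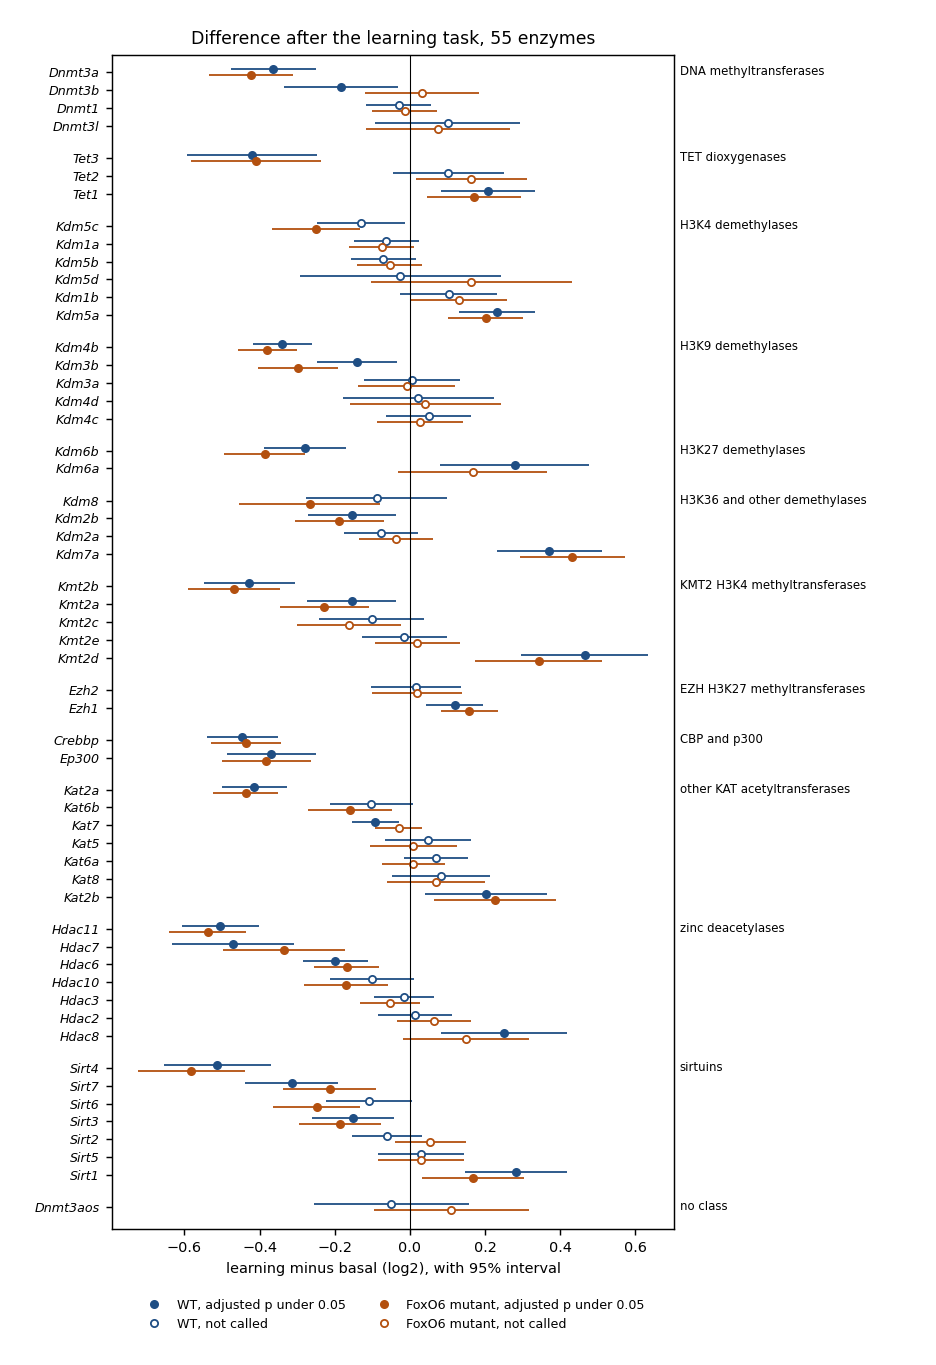
Learning minus basal for each of the 55 members (log2, with 95% interval), in WT (blue) and in the FoxO6 mutant (orange), ordered by enzyme class; filled points have an adjusted p under 0.05. The largest falls, between −0.58 and −0.50, belong to Sirt4 and Hdac11 and the largest rises to Kdm7a and to the Kmt2d probe used (its other probe fell), with the intervals of both genotypes overlapping for each.

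The acetyltransferases CBP and p300 (Crebbp and Ep300), paralogous coactivators that bind CREB and many other factors, both fell. Crebbp ranged from 9.72 to 9.97 (median 9.80) at basal in WT and from 9.29 to 9.49 (9.39) after learning, and in the mutant from 9.80 to 9.90 (9.85) and from 9.32 to 9.52 (9.40). In neither genotype did any learning array reach the lowest basal array. The difference was −0.45 in WT (SE 0.0457, 0.734-fold, adjusted p = 2.89e-09) and −0.44 in the mutant (0.739-fold, adjusted p = 4.1e-09). Ep300 ranged from 8.52 to 8.73 (median 8.63) at basal in WT and from 8.03 to 8.37 (8.28) after learning, and from 8.52 to 8.72 (8.63) and 8.09 to 8.38 (8.27) in the mutant. These groups did not overlap either, with differences of −0.37 (adjusted p = 4.68e-06) and −0.38 (adjusted p = 2.71e-06).

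Among the 7 other KAT acetyltransferases, paralogs differed in direction. Kat2a (GCN5) ranged from 8.89 to 9.10 (median 8.97) at basal and from 8.51 to 8.62 (8.56) after learning in WT, and from 8.92 to 9.05 (8.99) and 8.43 to 8.64 (8.56) in the mutant. All learning arrays lay below all basal arrays, and the average difference was −0.43 (SE 0.0299, 0.744-fold, adjusted p = 3.4e-13). Its paralog Kat2b (PCAF) went the other way, by 0.20 in WT and 0.23 in the mutant, with an average of 0.21 (SE 0.0557, adjusted p = 0.00163). Its basal and learning arrays overlapped in both genotypes. With 1 array left out at a time the WT call of Kat2b held in 5 of 12 runs (limma adjusted p up to 0.134). Its mutant call held in 9 of 12 (adjusted p up to 0.058). Kat6b, the catalytic subunit of the MORF complex, fell by 0.13 on average (adjusted p = 0.00462), while its paralog Kat6a differed by 0.04 (95% interval −0.02 to 0.10) and was not called. Kat7, the HBO1 enzyme, fell by 0.06 (adjusted p = 0.0177). Kat5 (TIP60) and Kat8 (MOF) were not called, with average differences of 0.03 and 0.08.

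Most of the deacetylases that were called fell. Of 7 zinc-dependent deacetylases 4 (57.1%) fell and 1 (14.3%) rose on average, against 23.1% and 31.7% of all genes. This count leaves out Hdac1, Hdac4, Hdac5 and Hdac9, which were set aside. Hdac11, the class IV deacetylase, ranged from 9.31 to 9.52 (median 9.44) at basal in WT and 8.86 to 9.02 (8.93) after learning, and from 9.37 to 9.60 (9.54) and 8.82 to 9.06 (9.00) in the mutant. The groups stood apart in both genotypes, and the average difference of −0.52 (SE 0.0352, 0.697-fold, adjusted p = 1.5e-13) had the smallest p-value of all members. For Hdac7, a class IIa enzyme, the fall was 0.47 in WT (difference −0.47, adjusted p = 1.37e-05) and the difference in the mutant was −0.34 (adjusted p = 0.000926). It ranged from 7.25 to 7.58 at basal and 6.76 to 7.07 after learning in WT, with no overlap, and from 7.16 to 7.48 and 6.86 to 7.35 in the mutant, where the groups overlapped. Hdac6, which also deacetylates tubulin, fell by 0.18 on average (adjusted p = 4.56e-06), and Hdac10, a polyamine deacetylase, by 0.14 (adjusted p = 0.00365). Hdac8 rose by 0.20 (SE 0.058, adjusted p = 0.00428).

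The class I deacetylases Hdac2 and Hdac3, the catalytic subunits of Sin3, NuRD and CoREST complexes and of the NCoR complex, were not called. Hdac2 ranged from 10.51 to 10.65 (median 10.60) at basal and from 10.52 to 10.74 (10.58) after learning in WT, and from 10.31 to 10.64 (10.55) and 10.46 to 10.70 (10.58) in the mutant. Basal and learning arrays overlapped throughout, and the 95% interval of the average difference was −0.03 to 0.11. Hdac3 ranged from 10.31 to 10.37 (10.33) at basal and 10.21 to 10.37 (10.32) after learning in WT, and from 10.22 to 10.42 (10.33) and 10.12 to 10.37 (10.27) in the mutant. Its average difference was −0.03 (95% interval −0.09 to 0.02, adjusted p = 0.305), and a repeated quantile normalization gave −0.06 with a call (adjusted p = 0.0386). These intervals leave out a change of the size seen in Hdac11.

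Of the 7 sirtuins, NAD-dependent deacylases, 4 (57.1%) fell and 1 (14.3%) rose on average. Sirt4, a mitochondrial enzyme, ranged from 7.81 to 8.20 (median 8.05) at basal and 7.42 to 7.74 (7.49) after learning in WT, and from 7.92 to 8.10 (8.02) and 7.27 to 7.67 (7.39) in the mutant. No learning array reached a basal one in either genotype, and the average difference, −0.55 (SE 0.0491, 0.684-fold, adjusted p = 7.36e-11), was the largest in size among the members. Sirt7, found in the nucleolus, fell by 0.26 on average (adjusted p = 4.7e-06), Sirt6, a chromatin deacylase, by 0.18 (adjusted p = 0.000339) and Sirt3, the main mitochondrial deacetylase, by 0.17 (adjusted p = 0.000324). Sirt1, the nuclear deacetylase most often studied in memory, rose. It ranged from 7.83 to 7.97 (median 7.84) at basal and 8.03 to 8.29 (8.14) after learning in WT, and from 7.57 to 8.07 (7.81) and 7.86 to 8.16 (8.01) in the mutant. The WT groups did not overlap and the mutant groups did. The rise was 0.28 in WT (SE 0.0663, adjusted p = 0.000869) and 0.17 in the mutant (SE 0.0663, adjusted p = 0.0431). Leaving out basal array 1, 4, 5 or 6 or learning array 2, 4, 5 or 6 of the mutant ended its call there (adjusted p up to 0.146), as did the choroid plexus covariate (0.14, adjusted p = 0.148), a fit of the mutant groups alone (0.0811) and a fit of every probe (0.0616). Sirt2 and Sirt5 were not called, with average differences of 0.00 and 0.03.

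**Figure D2:**
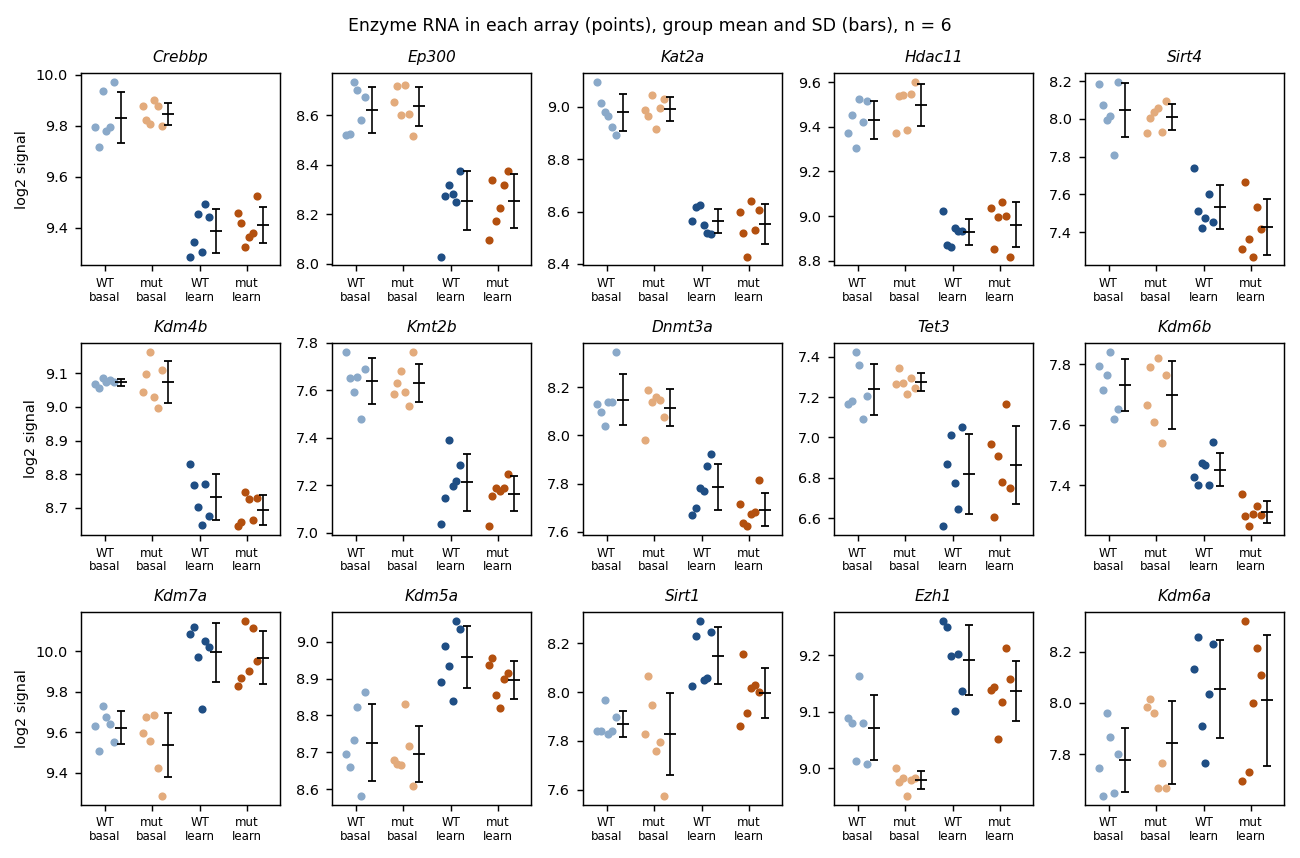
Log2 signal of 15 members in each of the 24 arrays (points), with the mean and SD of each group of 6 (bars), for WT and mutant (mut) at basal and after learning (learn); each panel has its own axis, which does not start at 0. Crebbp, Ep300, Kat2a, Hdac11, Sirt4, Kdm4b, Kmt2b, Dnmt3a, Tet3 and Kdm6b lie lower in all learning arrays than in all basal arrays of the same genotype, while Kdm7a, Kdm5a, Sirt1, Ezh1 and Kdm6a lie higher on average.

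The KMT2 family methylates lysine 4 of histone H3. Kmt2b ranged from 7.48 to 7.76 (median 7.65) at basal and 7.04 to 7.39 (7.21) after learning in WT, and from 7.53 to 7.76 (7.61) and 7.03 to 7.25 (7.18) in the mutant. Basal and learning arrays were separate in both, with an average difference of −0.45 (SE 0.0421, 0.733-fold, adjusted p = 1.93e-10). Kmt2a (MLL1), the closest paralog of Kmt2b, fell by less. It ranged from 8.90 to 9.14 (median 8.99) at basal and 8.72 to 9.08 (8.82) after learning in WT, which overlapped, and from 8.95 to 9.19 (8.99) and 8.61 to 8.87 (8.82) in the mutant, which did not. The difference was −0.15 in WT (adjusted p = 0.0312) and −0.23 in the mutant (adjusted p = 0.00186). Leaving out basal array 3 or 4 or learning array 1, 2 or 4 of WT ended the WT call (adjusted p up to 0.0917), as did median centring of the arrays. Kmt2c (MLL3) fell by 0.13 on average (adjusted p = 0.0203), and Kmt2e, which has no known strong methyltransferase activity, was not called (average 0.00).

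The direction of Kmt2d (MLL4), the paralog of Kmt2c that methylates enhancers, depended on the probe. The brighter of its 2 probes, used for the counts, ranged from 7.67 to 8.04 at basal and 8.01 to 8.45 after learning in WT, and from 7.80 to 8.15 and 8.14 to 8.48 in the mutant. Its rise was 0.47 in WT (adjusted p = 2.79e-05) and 0.34 in the mutant (adjusted p = 0.0011). The other probe ranged from 8.05 to 8.37 at basal and 7.48 to 7.73 after learning in WT, and from 8.13 to 8.33 and 7.49 to 7.65 in the mutant. It fell with no overlap, with differences of −0.63 in WT (adjusted p = 3.02e-09 over all probes) and −0.62 in the mutant (adjusted p = 3.68e-09). The mean of both probes differed by −0.08 in WT (limma adjusted p = 0.251) and −0.14 in the mutant (adjusted p = 0.0487). Averaged over genotypes it was called lower, at −0.11 (limma adjusted p = 0.0195). No direction is therefore given for the gene.

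**Figure D3:**
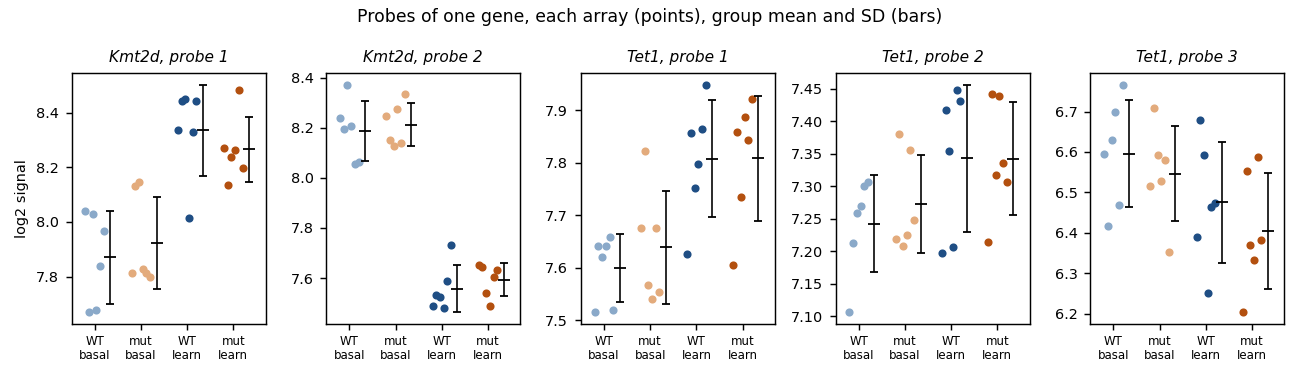
Log2 signal of the probes of Kmt2d (2 probes) and Tet1 (3 probes) in each array (points), with the mean and SD of each group of 6 (bars); axes differ and do not start at 0. Kmt2d probe 1 is higher and probe 2 lower after learning (learn) in WT and in the mutant (mut); of the Tet1 probes, probe 1 is the one used for the counts.

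Of 6 demethylases of histone H3 lysine 4, 2 (33.3%; 31.7% of all genes) rose and 1 (16.7%; 23.1% of all genes) fell on average, shares near those of all genes. Kdm5a, a Jumonji enzyme, ranged from 8.58 to 8.86 (median 8.71) at basal and 8.84 to 9.06 (8.96) after learning in WT, and from 8.61 to 8.83 (8.67) and 8.82 to 8.96 (8.91) in the mutant. The highest basal array lay just above the lowest learning array in each genotype, and the rise was 0.23 in WT (adjusted p = 0.000265) and 0.20 in the mutant (adjusted p = 0.00122). Its X-linked paralog Kdm5c, mutated in intellectual disability, fell by 0.19 on average (adjusted p = 0.000182). Kdm1b (LSD2) rose by 0.12 on average (adjusted p = 0.0278), a call that ended when basal array 3 or learning array 2 of the mutant or learning array 5 of WT was left out (adjusted p up to 0.061). Its paralog Kdm1a (LSD1) had an average difference of −0.07 (adjusted p = 0.0517), Kdm5b of −0.06 and the Y-linked Kdm5d of 0.07, and none of these was called.

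Of 5 demethylases of histone H3 lysine 9, 2 fell (40%; 23.1% of all genes). Kdm4b ranged from 9.06 to 9.08 (median 9.07) at basal and 8.65 to 8.83 (8.74) after learning in WT, and from 9.00 to 9.16 (9.07) and 8.64 to 8.75 (8.69) in the mutant. The groups did not overlap, and the average difference was −0.36 (SE 0.0271, 0.779-fold, adjusted p = 1.69e-12). Kdm3b fell by 0.22 on average (adjusted p = 7.04e-06), by 0.14 in WT and by 0.30 in the mutant. In the mutant its learning arrays lay wholly below the basal ones. With 1 array left out at a time the WT call of Kdm3b held in 8 of 12 runs (limma adjusted p up to 0.0981). Kdm3a, Kdm4c and Kdm4d were not called, with average differences of 0.00, 0.04 and 0.03.

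The Kdm6 demethylases of histone H3 lysine 27 went in opposite directions. Kdm6b (JMJD3), an enzyme induced by signals in other cell types, fell. It ranged from 7.62 to 7.84 (median 7.74) at basal and 7.40 to 7.54 (7.45) after learning in WT, and from 7.54 to 7.82 (7.71) and 7.26 to 7.37 (7.30) in the mutant. All learning arrays lay below all basal arrays of their genotype, with differences of −0.28 in WT (adjusted p = 6.6e-05) and −0.39 in the mutant (adjusted p = 5.28e-07). Its X-linked paralog Kdm6a (UTX) ranged from 7.64 to 7.96 (median 7.77) at basal and 7.77 to 8.26 (8.08) after learning in WT, and from 7.67 to 8.02 (7.87) and 7.69 to 8.32 (8.05) in the mutant. The groups overlapped in both genotypes. It rose by 0.22 on average (SE 0.0688, adjusted p = 0.00701), and it was called in WT (0.28, adjusted p = 0.0207) and not in the mutant (0.17, adjusted p = 0.179). With the choroid plexus marker mean as a covariate the average was 0.20 with no call (adjusted p = 0.0515).

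The methyltransferases of the same lysine, Ezh1 and Ezh2, are the alternative catalytic subunits of Polycomb repressive complex 2, and Ezh1 is the form kept in neurons that no longer divide. Ezh1 ranged from 9.01 to 9.16 (median 9.08) at basal and 9.10 to 9.26 (9.20) after learning in WT, and from 8.95 to 9.00 (8.98) and 9.05 to 9.21 (9.14) in the mutant. The mutant groups were separate and the WT groups overlapped. The rise of Ezh1 was 0.12 in WT (adjusted p = 0.00989) and 0.16 in the mutant (adjusted p = 0.000864), and the WT call ended with a repeated quantile normalization and without WT basal arrays 1, 2 and 3 (adjusted p up to 0.0844). Ezh2 ranged from 7.39 to 7.65 (median 7.49) at basal and 7.42 to 7.62 (7.50) after learning in WT, and from 7.30 to 7.55 (7.42) and 7.26 to 7.62 (7.41) in the mutant. These overlapped, and Ezh2 was not called (average 0.02, 95% interval −0.07 to 0.10).

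Kdm7a, whose promoter stretch is printed above, ranged from 9.51 to 9.73 (median 9.64) at basal and 9.71 to 10.12 (10.04) after learning in WT, and from 9.29 to 9.69 (9.58) and 9.83 to 10.15 (9.93) in the mutant. The WT groups overlapped by 1 learning array and the mutant groups were separate. The rise was 0.37 in WT (SE 0.0684, 1.29-fold, adjusted p = 4.63e-05) and 0.43 in the mutant (1.35-fold, adjusted p = 5.39e-06), and its other probe rose by 0.28 and 0.30. Kdm2b, a CpG island binding demethylase of histone H3 lysine 36, fell by 0.17 on average (adjusted p = 0.000706), and Kdm8, a Jumonji protein, by 0.18 (adjusted p = 0.0216). The call of Kdm8 ended with the choroid plexus marker mean as a covariate (−0.14) and without WT basal arrays 1, 2 and 3 (−0.11, adjusted p = 0.219). The WT call of Kdm2b held in 8 of 12 runs with 1 array left out (limma adjusted p up to 0.0935). Kdm2a, the paralog of Kdm2b, was not called (average −0.06).

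Of the 4 DNA methyltransferase genes, Dnmt3a changed in both genotypes. Dnmt3a, the main de novo methyltransferase of neurons, ranged from 8.04 to 8.35 (median 8.13) at basal and 7.67 to 7.92 (7.78) after learning in WT, and from 7.98 to 8.19 (8.14) and 7.62 to 7.82 (7.68) in the mutant. No learning array reached the lowest basal array, and the difference was −0.36 in WT (SE 0.0549, 0.777-fold, adjusted p = 2.52e-06) and −0.42 in the mutant (0.746-fold, adjusted p = 2.04e-07). Its antisense RNA Dnmt3aos was not called (average 0.03, 95% interval −0.12 to 0.18). Dnmt1, the maintenance enzyme, ranged from 8.35 to 8.47 (median 8.39) at basal and 8.27 to 8.41 (8.40) after learning in WT, and from 8.30 to 8.42 (8.33) and 8.23 to 8.41 (8.31) in the mutant. These overlapped, and Dnmt1 was not called (average −0.02, 95% interval −0.08 to 0.04). Dnmt3b fell by 0.18 in WT (adjusted p = 0.046), where the groups did not overlap, and differed by 0.03 in the mutant. Leaving out basal array 2, 5 or 6 or learning array 2, 3, 4 or 6 of WT ended the call (adjusted p up to 0.131), and the genotypes were not shown to differ (interaction interval 0.00 to 0.43, adjusted p = 1). The signals of Dnmt3b and of Dnmt3l, which has no catalytic activity and was not called, lay below the array medians of 6.16 to 6.30.

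Of the 3 TET dioxygenases, Tet3 fell on both of its probes, while the rise of Tet1 depended on the probe and that of Tet2 was called only on average. Tet3 ranged from 7.09 to 7.43 (median 7.19) at basal and 6.56 to 7.05 (6.82) after learning in WT, and from 7.21 to 7.35 (7.27) and 6.61 to 7.16 (6.84) in the mutant. The groups did not overlap, with a fall of 0.42 in WT (SE 0.0845, adjusted p = 0.000144) and of 0.41 in the mutant (adjusted p = 0.000196), and the other Tet3 probe fell by 0.36 and 0.38. Tet1 ranged from 7.52 to 7.66 (median 7.63) at basal and 7.63 to 7.95 (7.83) after learning in WT, and from 7.54 to 7.82 (7.62) and 7.60 to 7.92 (7.85) in the mutant. The groups overlapped, and the rise was 0.21 in WT (adjusted p = 0.00632) and 0.17 in the mutant (adjusted p = 0.0265). Leaving out basal array 3, 4 or 6 or learning array 2, 4 or 6 of the mutant ended the mutant call (adjusted p up to 0.0701), as did the choroid plexus covariate (0.17, adjusted p = 0.0593) and a fit of the mutant groups alone (0.0503). Its other probes differed by 0.10 and −0.12 in WT and by 0.07 and −0.14 in the mutant with no call, and the mean of the 3 probes was not called (adjusted p = 0.419 in WT and 0.701 in the mutant). Tet2 ranged from 6.63 to 6.96 (median 6.86) at basal and 6.78 to 7.09 (6.94) after learning in WT, and from 6.71 to 6.93 (6.74) and 6.78 to 7.19 (6.95) in the mutant. The groups overlapped, with differences of 0.10 and 0.16 that were not called. The average of 0.13 was called (adjusted p = 0.0289), but not when basal array 5 or learning array 3 of WT or learning array 2 of the mutant was left out (adjusted p up to 0.0632).

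The WT basal arrays differed in choroid plexus markers, so the WT comparison was also run on 3 of them at a time. Without arrays 1, 2 and 3, where these markers were high, 23 members were called in WT and 33 on average. Without arrays 4, 5 and 6, where they were low, 19 were called in WT and 32 on average. Dnmt3b, Kat2b, Kdm2b, Kdm6a and Kmt2a lost their WT call whichever 3 were left out, with differences close to those on all arrays. Kdm6a was 0.28 and 0.27 in these runs (0.28 on all arrays), Kat2b 0.23 and 0.18 (0.20), Dnmt3b −0.20 and −0.16 (−0.18), Kdm2b −0.16 and −0.15 (−0.15) and Kmt2a −0.14 and −0.17 (−0.15). Ezh1 lost its WT call without arrays 1, 2 and 3 (0.11). Hdac8 (0.23), Kat7 (−0.08), Kdm3b (−0.10, from −0.14) and Sirt3 (−0.11, from −0.15) lost theirs without arrays 4, 5 and 6 (adjusted p up to 0.221). These runs hold fewer arrays, so a lost call does not show a dependence on the markers. With the choroid plexus marker mean as a covariate 26 members were called in WT, 25 in the mutant and 30 on average. The average calls of Kdm1b, Kdm6a, Kdm8, Kmt2c and Tet2 ended with it (adjusted p from 0.0515 to 0.308). Of these Kdm1b shrank most, from 0.12 to 0.065, while Kmt2c stayed at −0.13 and Tet2 went from 0.13 to 0.14. The covariate also ended the WT calls of Dnmt3b, Kat2b, Kdm6a and Kmt2a (adjusted p up to 0.0905) and the mutant calls of Kat2b (0.21), Kdm8 (−0.23), Sirt1 and Tet1 (adjusted p up to 0.148), with differences near those without it. On average Kdm1b and Kdm8 lost their call without arrays 1, 2 and 3, and Kat7, Kdm1b and Tet2 (0.11) without arrays 4, 5 and 6 (adjusted p up to 0.219). Centring each array on its median ended the WT calls of Dnmt3b, Kat7, Kdm2b, Kdm3b, Kmt2a and Sirt3 and the average calls of Kat6b, Kat7 and Kmt2c (adjusted p from 0.0629 to 0.319), and the mutant calls of Kat6b and Sirt1. The part of the pyramidal, astrocyte and endothelial markers in these results was not tested.

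Between genotypes few of these enzymes came near a call. At basal 0 of 55 members were called (limma; 2 at an unadjusted p under 0.05) where 0.1% of all genes were, and after learning 0 (5 at an unadjusted p under 0.05) where 0.0752% were. Averaged over both states 1 member was called (0.391% of all genes; 7 members at an unadjusted p under 0.05). The percentages are of adjusted calls. The unadjusted counts have no share of all genes beside them and are not to be read against these percentages. The SE of a member was 0.0308 to 0.131 in each state, and no 95% interval of a genotype difference reached beyond 0.403 on the log2 scale at basal or 0.392 after learning. The genotype differences of the members had the same sign in both states in 34 of 55 (61.8%; 58.5% of all genes), and they correlated at r = 0.248 across members.

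Hdac10 was the member called. With a median of 7.07 in WT and 6.94 in the mutant, it ranged at basal from 7.015 to 7.194 in WT and from 6.903 to 7.003 in the mutant, and after learning from 6.89 to 7.07 (median 6.98) and 6.65 to 6.89 (6.76). The groups did not overlap at basal, and after learning the highest mutant array lay just above the lowest WT array. Averaged over states it was lower in the mutant, where 0.216% of all genes were called lower (difference −0.17, SE 0.0385, 0.887-fold, adjusted p = 0.0355), from −0.14 at basal (adjusted p = 0.992) and −0.21 after learning (adjusted p = 0.252). Leaving out 13 of the 24 arrays, 1 at a time, ended the call (adjusted p up to 0.0732): in WT basal arrays 2, 4, 5 and 6 and learning arrays 1, 2 and 6, and in the mutant basal arrays 3, 5 and 6 and learning arrays 1, 4 and 6. It also ended with median centring (0.0827) and with the choroid plexus marker mean as a covariate (0.204), and the difference then was −0.17 and −0.15.

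The other members nearest to a call were called in neither state. The mean of Ezh1 was lower in the mutant in both, at 8.98 against 9.07 at basal and 9.14 against 9.19 after learning. Ezh1 was lower in all 6 mutant basal arrays (8.95 to 9.00) than in all 6 WT basal arrays (9.01 to 9.16), a difference of −0.09 (unadjusted p = 0.0179, limma adjusted p = 0.996), and averaged over states it differed by −0.07 (adjusted p = 0.36). Sirt7 differed by −0.12 at basal (unadjusted p = 0.061, adjusted p = 1). In all, 2 members, Ezh1 and Hdac10, were wholly lower in the mutant at basal, where 0.186% of all genes were, and 0 were wholly higher (0.246% of all genes). After learning Sirt2, a cytoplasmic deacetylase abundant in oligodendrocytes, was higher in all 6 mutant arrays (10.05 to 10.16) than in all 6 WT arrays (9.83 to 10.05), a difference of 0.14 (adjusted p = 0.4; 0.191% of all genes were wholly higher), and its average over states was 0.09 (adjusted p = 0.396). Kdm6b, named after its values were seen, was wholly lower in the mutant after learning (7.26 to 7.37 against 7.40 to 7.54; −0.14, adjusted p = 0.552; 0.181% of all genes were wholly lower). Kdm3b was lower there by 0.14 (adjusted p = 0.538). The mean of 9 oligodendrocyte markers after learning ranged from 10.02 to 10.21 in WT and from 10.09 to 10.24 in the mutant. Of 9 dentate granule cell markers 4 were called lower in the mutant on average over states, where 0.216% of all genes were. Their mean ranged from 8.09 to 8.26 in WT and 7.94 to 8.10 in the mutant at basal, and from 8.00 to 8.22 and 7.93 to 8.02 after learning. The mean of 12 interneuron markers was higher in the mutant, at 8.86 against 8.76 at basal and 8.88 against 8.80 after learning. That of 15 choroid plexus markers was also higher, at 6.75 against 6.46 at basal and 6.37 against 6.21 after learning. The part of these markers in the genotype differences was not tested.

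**Figure D4:**
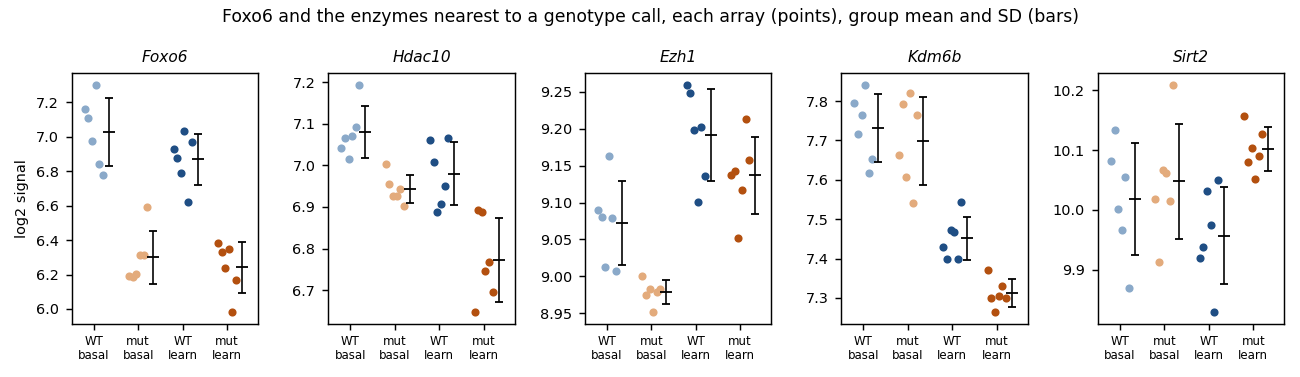
Log2 signal of Foxo6 and of 4 members in each array (points), with the mean and SD of each group of 6 (bars), for WT and mutant (mut) at basal and after learning (learn); axes differ and do not start at 0. Foxo6 is lower in the mutant in both states, and the members differ by far less, with Hdac10 and Ezh1 wholly lower at basal and Kdm6b wholly lower and Sirt2 wholly higher after learning.

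Whether the learning response of the enzymes depended on FoxO6 was asked by the interaction, the learning difference in the mutant minus that in WT. Of 55 members 0 were called by limma, as were 0% of all genes. The smallest p was that of Kdm3b, at −0.16 (95% interval −0.31 to −0.01, unadjusted p = 0.0417, adjusted p = 1), with falls of 0.30 in the mutant and 0.14 in WT. Next by p were Dnmt3b at 0.21 (unadjusted p = 0.0503) and Sirt2 at 0.12 (unadjusted p = 0.0848), each with an adjusted p of 1. For Crebbp the interaction interval was −0.12 to 0.14, for Hdac11 −0.18 to 0.11, for Kat2a −0.15 to 0.10 and for Dnmt3a −0.22 to 0.10. Those bounds are smaller than the falls of these 4 enzymes in either genotype. For Sirt1 it was −0.31 to 0.08, which spans its whole rise in WT.

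Subunits and readers that work with these enzymes were counted the same way, on average over genotypes, where 23.1% of all genes fell and 31.7% rose. Of 24 measured genes of deacetylase corepressor complexes 17 (70.8%) fell and 4 (16.7%) rose. The NuRD helicases Chd3 (−0.44) and Chd4 (−0.47) and the NuRD subunit Gatad2b (−0.48) fell, while Tbl1xr1 of the NCoR complex (0.39) and the Sin3 subunits Sap30 (0.68) and Sap18 (0.30) rose. Of 36 acetyltransferase partners 16 (44.4%) fell, among them Kansl1 (−0.40) and Trrap (−0.33), and 12 (33.3%) rose, near the share of all genes, among them the SAGA subunit Tada1 (0.59). Of 3 BET readers of acetylated histones Brd2 fell by 0.53 and Brdt rose by 0.13.

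Among partners of the methylating enzymes, shares are again to be read against 23.1% of all genes that fell and 31.7% that rose. Of 12 KMT2 complex partners 4 (33.3%) fell, led by Hcfc1 (−0.63), Men1 (−0.32) and Cxxc1 (−0.51), and 5 (41.7%) rose, led by Wdr82 (0.22) and Dpy30 (0.21). Of 9 partners of Ezh1 and Ezh2 5 (55.6%) rose, with Rbbp4 (0.43), Mtf2 (0.41) and Rbbp7 (0.26) first, and Phf1 (11.1%) fell by 0.46. Of 16 genes of Polycomb repressive complex 1, 8 (50%) rose and 7 (43.8%) fell, and its ubiquitin ligases went apart, with Rnf2 at 0.48 and Ring1 at −0.56. Of 10 genes of lysine 9 methylation and its HP1 readers 5 (50%) fell, with the corepressor Trim28 (−0.60) and the methyltransferase Ehmt2 (−0.55) first, and 3 (30%) rose. Of 17 other histone lysine methyltransferases 7 (41.2%) fell, led by Setd1a (−0.61), and 6 (35.3%) rose, led by Setd3 (0.49). Of 9 arginine methyltransferases 3 (33.3%) fell, led by Carm1 (−0.36), and 4 (44.4%) rose, led by Prmt9 (0.57). Of 9 other Jumonji demethylases 2 (22.2%) fell, Phf2 (−0.39) and Hr (−0.34), and 4 (44.4%) rose.

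On the side of DNA methylation, 5 of 11 genes of demethylation and repair rose (45.5%; 31.7% of all genes) and 2 fell (18.2%; 23.1% of all genes). The 3 Gadd45 genes, stress and activity responsive factors tied to active DNA demethylation, rose by 0.74 (Gadd45a), 0.74 (Gadd45b) and 0.65 (Gadd45g), while the glycosylase Ogg1 fell by 0.41. Of 9 readers of methylated CpG 4 (44.4%) rose, led by Zbtb33 (0.44), and 4 (44.4%) fell, led by Zbtb4 (−0.39) and Mbd1 (−0.27). Of 11 listed histone variants 2 were measured, H3f3a (0.26) and Cenpa (0.33), and both rose. Adjusted p-values of the genes named in these lists ranged from 3e-18 to 0.00627 (limma, average over genotypes).

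**Figure D5:**
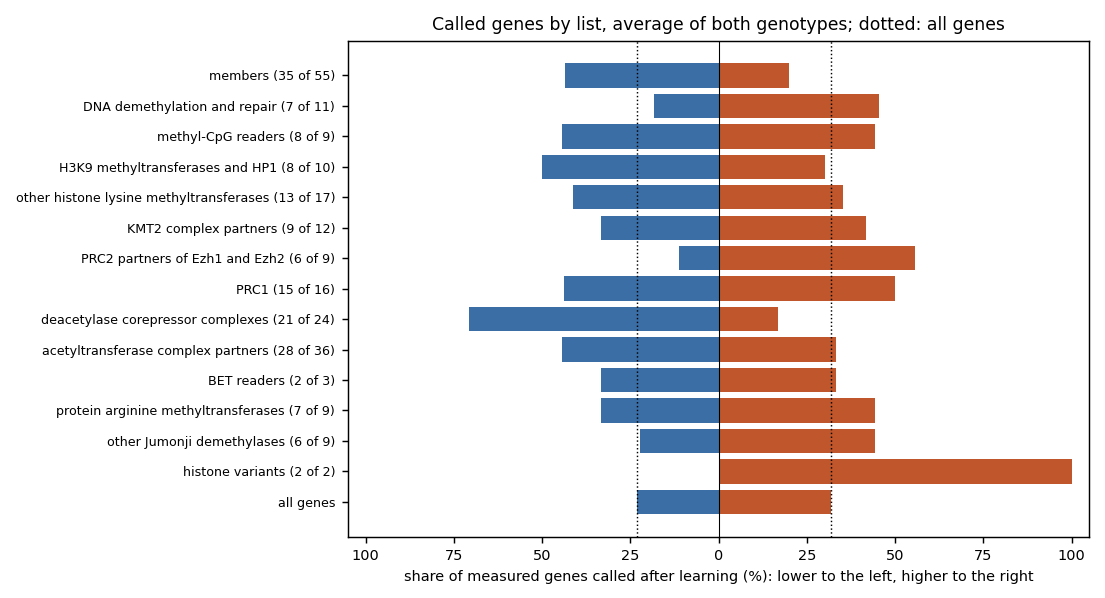
Share of measured genes called lower (left) and higher (right) after learning, averaged over genotypes, for the 55 members, 13 lists of related genes and all genes; called and measured counts stand in parentheses and dotted lines mark the shares of all genes (23.1% lower, 31.7% higher). Deacetylase corepressor genes have 70.8% called lower and the members 43.6%.

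Base composition at the promoters was set beside the learning differences. Of the 55 members 45 (81.8%) had a promoter in the RefSeq table, with a median of 20 CpGs in the 300 bases from 250 before to 50 after the start. Across these 45, the average learning difference correlated at rho = −0.112 with the number of CpGs and at rho = −0.0936 with GC content, as a description only. Over all genes 78.1% had a promoter entry, under the minimum of 80% set for such a check, so it is void there and the members' values have no background to be read against. The cAMP response element TGACGTCA, searched on both strands, was in 0 of 66 member windows (1.79% of 32851 windows of all genes), which says only that these letters are not there. The AP-1 letters TGANTCA, which no cAMP element stretch also matches, were in 7 member windows (10.6%; 7.81% of all). The forkhead letters GTAAACA were in 2 (3.03%; 3.65% of all), those of Hdac7 and Kdm2b, and the E-box CACGTG in 6 (9.09%; 7.15% of all). None of the 5 printed stretches holds any of these motifs.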

How the data were processed

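Hippocampal RNA of 24 samples was measured on 1-colour arrays. Values are on the log2 scale as deposited by the authors, who used RMA (version not stated), per the submitters' processing notes. RMA corrects background, equalises array quantiles and summarises probes. The values were used as deposited, with array medians of 6.16 to 6.30. Of 35511 probes 21789 carry 1 gene symbol, and the probe with the highest mean was kept for each of 19938 genes. Signal over background was not used, and the number of arrays limits the precision.

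One linear model in limma 3.58.1 (R 4.3.3) fitted a mean for each of the 4 groups on all 24 arrays, with eBayes and a mean-variance trend, for 7 comparisons. Two-sided p-values had a Benjamini-Hochberg adjustment over all 19938 genes, and a gene was called under 0.05. Intervals are 95% and group values have n = 6. The script was tested on simulated data. Replicate numbers did not pair arrays: deviations of same-numbered arrays correlated at −0.296 to 0.453, above 0.1 in 7 of 36 cases.

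The members and lists were chosen with earlier results of these data known, and no list was tested as a set. By rule, called members were named up to 12 a direction by p (the other called members were named after their values were seen), or, with under 3 called, the 3 with the smallest p, and 15 members were always named. Related lists give up to 3 called genes a direction. Alternatives were other scalings, probe rules, filters, variance models, array weights, a replicate block, a choroid plexus covariate and single arrays left out. The runs without WT basal arrays 1, 2 and 3 or 4, 5 and 6 were added after seeing the data. Sequences are RefSeq's (GRCm38.p6). Members were matched to RefSeq genes and promoters by Entrez ID, and all 55 matched a RefSeq gene.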

Additional observations from a re-analysis of the deposited data

Results flagged for a closer look

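In 11 of 164 groups of 6 arrays, taken over the 41 genes named with tests, 1 array stood apart from the rest by Dixon's test, where chance gives about 1 in 20. Low arrays were WT learning array 4 for Kmt2d (8.0144, the next at 8.3275) and Kdm7a (9.7139, the next at 9.9697), WT basal array 6 for Kat2b (6.9341), WT learning array 1 for Ep300 (8.0277) and Hdac3 (10.2142), and WT basal array 4 for Hdac6 (8.6433). High arrays were WT basal array 6 for Dnmt3a (8.3495) and Kat7 (10.0631), mutant basal array 4 for Kmt2a (9.1859), mutant learning array 2 for Hdac6 (8.6119) and mutant learning array 5 for Kdm5c (8.4721). The WT learning array that stood low for Kdm7a is the one that overlapped the WT basal arrays.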

How the results depend on the processing

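Counts of called members in the learning comparisons stayed within 1.5 times their main values under every alternative run: 19 to 33 in WT, 25 to 30 in the mutant and 30 to 39 on average. With the replicate block, which uses the numbers in the titles although they did not pair the arrays (3 of 24 arrays were closest to their own number), the counts were 27, 29 and 35. The 1 genotype call averaged over states, Hdac10, became 0 after median centring, with the replicate block (adjusted p = 0.0714), with the choroid plexus covariate, and without WT basal arrays 1, 2 and 3 (0.0887) or 4, 5 and 6 (0.236), and single arrays left out gave 0 to 1. Signs turned for members near 0. With median centring Hdac3 was 0.0201 in WT and Dnmt1 0.0057 in WT, 0.0037 in the mutant and 0.0047 on average. Hdac2 was −0.0327 in WT with a repeated quantile normalization and −0.0108 with the choroid plexus covariate, and Hdac3 was 0.0050 in WT without WT basal arrays 4, 5 and 6. The mean of its probes put Kmt2d at −0.0823 in WT, −0.1381 in the mutant and −0.1102 on average. Leaving out single arrays gave −0.0128 to 0.0299 for Hdac2, −0.0258 to 0.0057 for Hdac3 and −0.0065 to 0.0459 for Ezh2 in WT, −0.0312 to 0.0047 for Dnmt1 and −0.0212 to 0.0513 for Ezh2 in the mutant, and −0.0026 to 0.0336 for Ezh2 on average. The cause of these turns was not tested. Centring moved the median of all genes to 0.07 in WT and the repeated normalization to −0.01, from 0.03. The array number limits what can be seen, with a median SE of a member of 0.057 in WT and 0.0806 for the interaction.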
